A study of Mus musculus with 8 samples.

Results

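EGFP, the transcript of the enhanced green fluorescent protein, is 1 of 32286 gene features in single-cell RNA libraries from mouse lung adenocarcinomas, and its row was taken by its symbol in each of the 4 matrices. It held 1083 UMIs (unique molecular identifiers, each counting 1 captured RNA molecule) in 797 of 23884 cells used, or 1312 UMIs over all 31084 barcodes. The tumours came from KPC mice, which were infected through the trachea with lentivirus to start tumours, and the largest tumours were taken at week 16. Both groups carried CRISPR activation with dRNAs aimed at the tumour cells, directed at Malat1 in the group labelled mA1 and at Tomato in the control group labelled Con. Each group had 2 libraries made from 4 tumours that were dissociated with collagenase IV and DNase, cleared of dead cells and tagged with 2 hashtag antibodies that bind MHC class I and CD45. The labels do not say which animals or batches the libraries were made from, so that p-values measure only the spread between these libraries. That spread may be technical, although the Con libraries also differed in the sex-linked genes Xist and Ddx3y.

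EGFP is not a mouse gene. In mouse tumour models it is usually carried as a reporter in a knocked-in allele or a viral vector, often behind a stop cassette that Cre recombinase removes, so that only cells that met Cre, and their progeny, make the RNA. A widely used Cre-dependent Cas9 allele at the Rosa26 locus carries EGFP behind the Cas9 coding sequence, and Cre delivered into the airways can reach alveolar macrophages as well as epithelial cells. Where the EGFP sequence of these libraries sits, and whether these mice carry that allele, is not given in the sources used here. In droplet libraries RNA that leaked from other cells is also captured, so that detection in a class has to be read against classes that should lack the transcript. The comparisons here ask which cell classes held EGFP, whether it differed between the groups, and which genes went with it inside a class.

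The 4 libraries held 48319272 to 74996867 UMIs over all barcodes and 3783 to 7366 cells used. Classes were named from marker genes after clustering without EGFP. Tumour-like epithelial cells (1037) had all 9 of their markers detected, with a summed level of 12998 to 13918 CPM (UMI counts scaled to a common total) per library, and alveolar macrophage-like cells (5116) all 8 of theirs, with 14047 to 17481 CPM. Macrophage cluster 2 (1961 cells, led by Ccl17 and Mmp12) had the same 8 markers at 16583 to 25436 CPM, so by these markers it is alveolar macrophage-like too. It was set apart for its leading genes, whereas cluster 14, led by Inhba and Arg1, stayed in the class. The split was thus a choice, and levels of the class leave out cluster 2, which held less EGFP. Con library 2 stood apart: its epithelial cells held Xist at 959 CPM and no Ddx3y UMI, whereas the other libraries held Xist at 0.367 CPM or less and Ddx3y at 25.4 CPM or more. Pairs of libraries shared 87 to 262 cell barcodes, which touched 893 cells, among them 101 tumour-like epithelial and 29 alveolar macrophage-like cells. In summed cells of a class, fewer EGFP-positive cells and less EGFP RNA per cell cannot be told apart.

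EGFP was found almost wholly in 3 classes: tumour-like epithelial cells with 465 UMIs, alveolar macrophage-like cells with 468 and macrophage cluster 2 with 102. Epithelial cells made up 4.34% of cells and held 42.9% of EGFP UMIs, and alveolar macrophage-like cells made up 21.4% of cells and held 43.2%. Per 10000 UMIs of the class, EGFP in tumour-like epithelial cells was 0.0569 in Con library 1, 0.209 in Con library 2, 0.0821 in mA1 library 1 and 0.149 in mA1 library 2 (mean 0.124 ± 0.0685, SD, n = 4). The same group held both the lowest and the highest library, and the mA1 libraries lay between them. Alveolar macrophages held 0.05002, 0.0571, 0.0577 and 0.0785 in that order (mean 0.0608 ± 0.0123, SD, n = 4), a narrower spread. Macrophage cluster 2 held 0.0100, 0.0301, 0.0495 and 0.0470 (mean 0.0341 ± 0.0182, SD, n = 4). AT2-like cells, which keep the surfactant genes of alveolar type 2 cells, had 9 UMIs in 9 of 72 cells, with 0 in the 16 cells of Con library 2 and 0.0576 to 0.115 per 10000 in the other libraries.

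**Figure D1:**
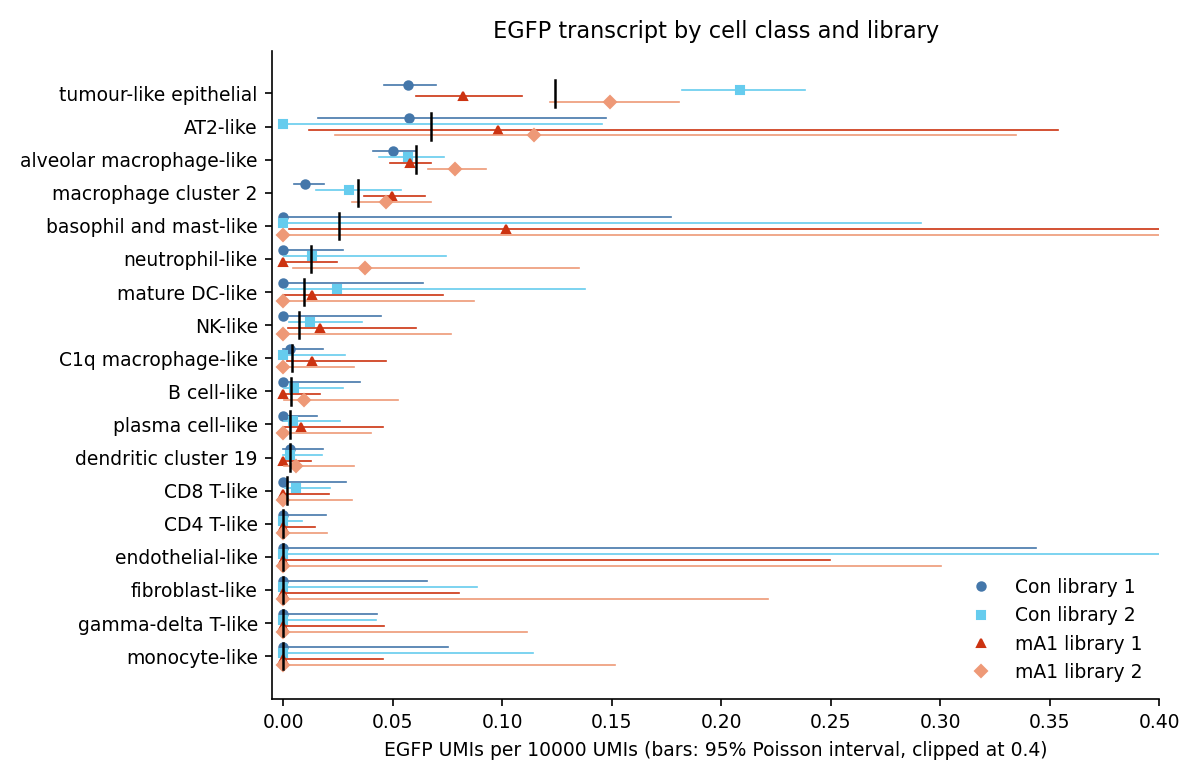
EGFP UMIs per 10000 UMIs (horizontal axis) for each named cell class, with 1 point per library, its 95% exact Poisson interval (counting error only) and a black line at the mean of 4 libraries. Tumour-like epithelial cells (0.0569 to 0.209) and the alveolar macrophage-like class (0.05002 to 0.0785) sit apart from the lymphocyte, dendritic and C1q macrophage classes, whose points lie near 0.

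The share of cells with at least 1 EGFP UMI was higher in the deepest than in the shallowest of 5 depth groups. This held in each library of tumour-like epithelial and alveolar macrophage-like cells, though the rise was not steady, and depth differed between classes. The share was 12.9%, 55.1%, 18.9% and 35.2% in tumour-like epithelial cells of Con libraries 1 and 2 and mA1 libraries 1 and 2, at a median of 30506 UMIs per cell. In alveolar macrophage-like cells it was 6.01%, 8.26%, 8.10% and 11.03%, at a median of 14207 UMIs. With each cell thinned to 2000 UMIs, the expected share was 2.53% ± 1.33 (SD, n = 4) in epithelial cells, 1.28% ± 0.243 in alveolar macrophage-like cells and 0.744% ± 0.372 in macrophage cluster 2. Thinning left out 3, 203 and 36 cells below that depth. Between the libraries, thinned shares ran from 1.16% to 4.06% in epithelial cells and from 1.10% to 1.64% in alveolar macrophage-like cells, so the ranges overlapped.

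Classes taken to lack a tumour reporter gave the background, which is an assumption because the source of EGFP is not given. T, NK and B cell classes together held 9 EGFP UMIs in 8 of 9607 cells, or 0.00279 per 10000 UMIs (95% exact Poisson interval 0.00127 to 0.00529). The 14 named classes outside the tumour-like epithelial, AT2-like, alveolar macrophage-like and macrophage cluster 2 classes were also counted together. They held 23 UMIs in 22 of 14553 cells (0.00340 per 10000, interval 0.00216 to 0.00511). That sum contains the 9 UMIs above and the 3 of C1q macrophage-like cells. CD4 T-like cells had 0 EGFP UMIs among 10568957 UMIs, and monocyte-like, fibroblast-like, endothelial-like and gamma-delta T-like cells also had 0. Against 3 counts over the CD4 T-like class, EGFP was at least 41.2-fold higher in tumour-like epithelial cells and at least 21.3-fold higher in alveolar macrophage-like cells. For the latter the same bound was 5.78-fold over gamma-delta T-like, 3.76-fold over monocyte-like and 3.23-fold over fibroblast-like cells. Over the 35 endothelial-like cells it was 0.778-fold, so their 0 could not show a lower level. Median depth was 2317 UMIs in B cell-like and 3385 in CD4 T-like cells. Thinned to 2000 UMIs, the expected share averaged 0.0514% in the former and 0% in the latter, with 792 and 267 shallower cells left out. The highest such mean among T, NK and B cell classes was 0.0786%, in NK-like cells. Alveolar macrophage-like cells averaged 1.28% at that depth, so the shares also differed at equal depth. No test was made on these thinned shares. Plasma cell-like cells had a median of 17652 UMIs and EGFP in 2 of 340 cells (0.588%, 95% exact binomial interval 0.0713 to 2.11%). These intervals cover counting error only.

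C1q macrophage-like cells, the interstitial type of macrophage marked by complement C1q genes and Apoe, were near the level of the T, NK and B cell classes. In pooled counts these levels were 0.00423 and 0.00279 per 10000 UMIs. They held 3 EGFP UMIs in 800 cells at a median of 8344 UMIs, with 0.00322, 0, 0.0130 and 0 per 10000 in Con libraries 1 and 2 and mA1 libraries 1 and 2. EGFP was 3.54 ± 0.57 (SE) higher on the log2 scale in alveolar macrophage-like than in C1q macrophage-like cells (adjusted p = 9.58e-05, edgeR's quasi-likelihood test with the library as block and Benjamini-Hochberg adjustment over 11236 genes), and every library was higher in the former. In that comparison 25.1% of all genes were called higher, so a call alone is common between cell classes. Without mA1 library 1 the difference was 4.73. Tumour-like epithelial cells exceeded C1q macrophage-like cells by 4.42 ± 0.55 (adjusted p = 6.81e-07, edgeR), with 35.7% of genes called higher. Alveolar macrophage-like cells also exceeded neutrophil-like cells by 2.31 ± 0.73 (adjusted p = 0.00458, edgeR; 38.4% called higher) and mature DC-like cells by 2.35 ± 0.85 (adjusted p = 0.0246, edgeR; 26.7% called higher). The first lost its call without mA1 library 1 (1.78) and the second without Con library 1 (1.99), mA1 library 1 (2.75) or mA1 library 2 (1.92), and with DESeq2 (2.38, adjusted p = 0.0711).

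EGFP was higher in tumour-like epithelial than in alveolar macrophage-like cells by 0.85 ± 0.29 on the log2 scale (adjusted p = 0.0304, edgeR, library as block), where 38.5% of 13104 genes were called higher. The epithelial level was the higher in all 4 libraries, but in Con library 1 the levels were 0.0569 and 0.05002, with overlapping Poisson intervals. Without Con library 2 the difference was 0.48 (adjusted p = 0.0584), and without mA1 library 2 it was 0.81 (adjusted p = 0.0911), so the call rested on those libraries. Against macrophage cluster 2 the epithelial level was higher by 1.66 ± 0.33 (adjusted p = 0.00134, edgeR), with 38% of genes called higher. The neighbours in the order of levels, AT2-like and alveolar macrophage-like cells, could not be told apart: the pooled ratio of the latter to the former was 0.949 (95% interval from counts 0.496 to 2.09).

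The macrophages that carry alveolar markers fell into 5 clusters, whose EGFP levels overlapped in part. Alveolar macrophage-like cluster 3, led by Spag11b, Fabp1 and Ear1, held 0.0618, 0.0700, 0.0722 and 0.0880 per 10000 UMIs in Con libraries 1 and 2 and mA1 libraries 1 and 2. Cluster 1, led by Spag11b, Fabp1 and the leukotriene C4 synthase gene Ltc4s, held 0.0461, 0.0620, 0.0650 and 0.0713, and the dividing cluster 20, led by Pclaf, Top2a and Mki67, held 0.0521, 0.0485, 0.0413 and 0.0851. Cluster 14, led by Inhba, Arg1, Cxcl1 and Il6, held 0.0324, 0.0360, 0.0521 and 0.0166, the last from 1 UMI in 23 cells. It lay below cluster 3 in each library, and above cluster 20 in mA1 library 1. Macrophage cluster 2 was lower than cluster 3 in each library. Cluster 3 exceeded macrophage cluster 2 by 1.09 ± 0.24 on the log2 scale (adjusted p = 0.00312, edgeR, library as block; 10.1% of 10612 genes called higher), a comparison of the highest with the lowest of these clusters in pooled counts, chosen after the values were seen, with median depths of 15068 and 14787 UMIs. Without the library block it did not pass (adjusted p = 0.154, edgeR). For the whole alveolar macrophage-like class over macrophage cluster 2 the difference was 0.77 ± 0.26 and missed the threshold (adjusted p = 0.0546, edgeR; 12.5% called higher). It passed without mA1 library 1, at 1.17 (adjusted p = 0.00418).

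**Figure D2:**
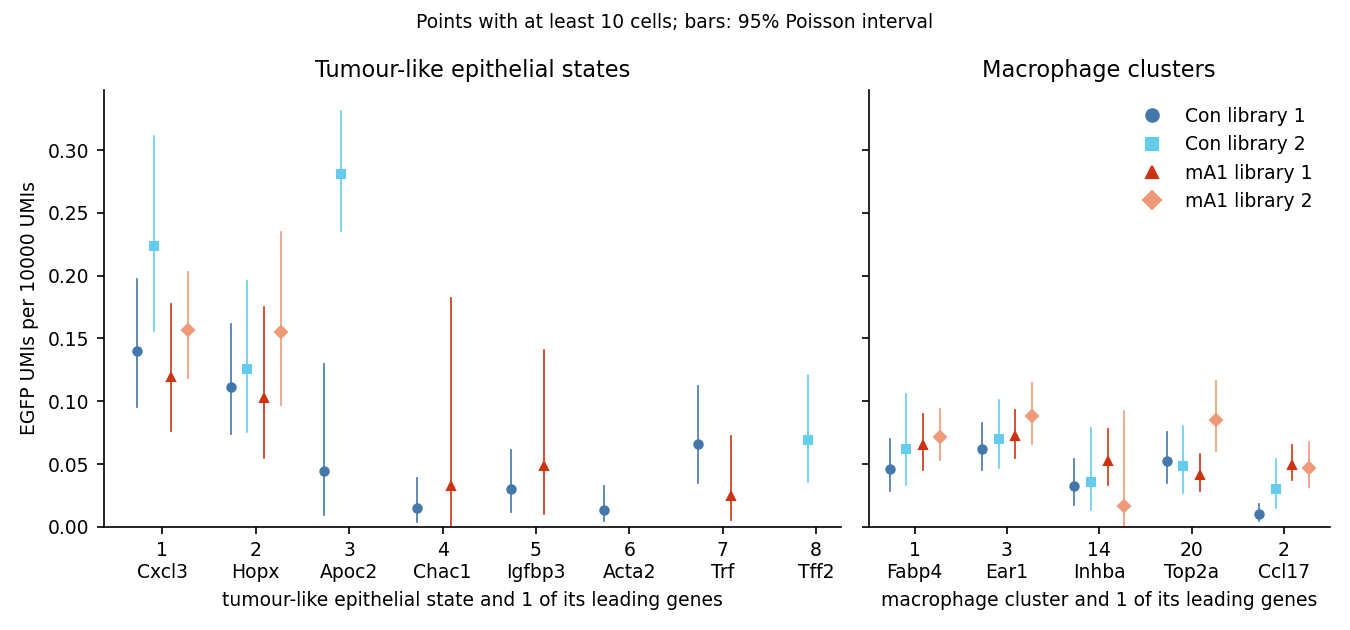
EGFP UMIs per 10000 UMIs (vertical axis) in tumour-like epithelial states (left) and macrophage clusters (right), 1 point per library with at least 10 cells, bars showing the 95% exact Poisson interval. Epithelial state 3 reached 0.281 in Con library 2, state 4 and state 6 lay at 0.0151 and 0.0138 in Con library 1, and macrophage cluster 3 stayed between 0.0618 and 0.0880.

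Beside EGFP, 8 epithelial transcripts were measured in each class (Krt7, Krt8, Krt18, Krt19, Cldn4, Cldn7, Epcam and Sfn). Their summed level was 128, 130, 136 and 137 per 10000 UMIs in tumour-like epithelial cells of Con libraries 1 and 2 and mA1 libraries 1 and 2. It was 0.851, 2.34, 1.37 and 1.26 in alveolar macrophage-like cells. At least 2 UMIs of these transcripts were found in 27.6%, 63.7%, 43.3% and 42.7% of alveolar macrophage-like cells. Krt19 alone averaged 112 CPM in alveolar macrophage-like and 1202 CPM in tumour-like epithelial cells, where the sum averaged 1.45 and 133 per 10000 UMIs. Krt19 was thus most of the sum in the macrophages and a small part of it in epithelial cells. Whether the macrophages made this Krt19 was not tested. EGFP per epithelial transcript was higher in the macrophages, by 7.05, 3.93, 6.12 and 5.85 on the log2 scale in those libraries (mean 5.74 ± 1.31, SD, n = 4). All 4 libraries had that sign (exact two-sided sign permutation p = 0.125, the smallest that 4 libraries can give). The part of epithelial RNA in the macrophages' EGFP was not tested. In plasma cell-like cells the epithelial transcripts averaged 2.31 per 10000 and EGFP 0.00321. EGFP was 3.08 ± 0.75 higher in alveolar macrophage-like than in plasma cell-like cells (adjusted p = 0.00182, edgeR; 32.4% of genes called higher).

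**Figure D3:**
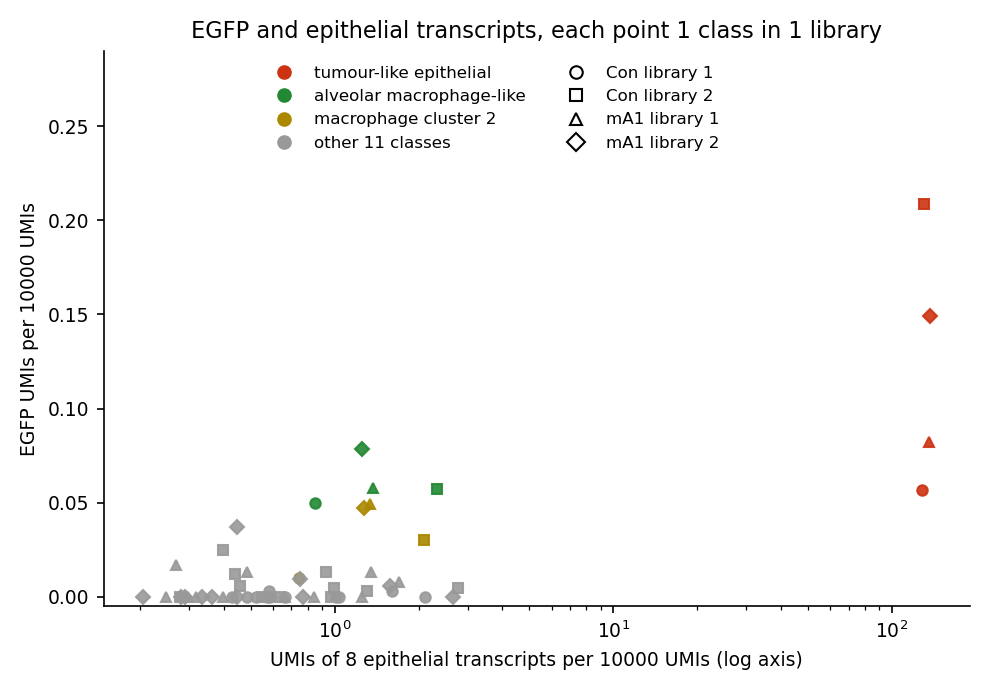
EGFP UMIs per 10000 UMIs against the UMIs of 8 epithelial transcripts per 10000 UMIs (log axis), each point 1 class in 1 library, for the 14 classes with at least 20 cells in every library. Alveolar macrophage-like points (0.05002 to 0.0785) lie above the other immune classes at the same epithelial transcript level, and tumour-like epithelial points lie far to the right at 128 to 137.

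Inside the alveolar macrophage-like class the 8 epithelial transcripts were mostly Krt19. They differed in no common direction between cells with EGFP and depth-matched cells without it. In mA1 library 1 they were at 1.58 per 10000 UMIs in 139 cells with EGFP and 1.35 in 139 without, and in mA1 library 2 at 1.19 and 1.33 in 123 and 123 cells. In Con library 1 they were at 0.770 and 0.798 in 95 and 95 cells, and in Con library 2 at 2.30 and 2.07 in 58 and 58. The sign differed between libraries, with 2 higher and 2 lower.

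Tumour-like epithelial cells fell into 8 states that differed in EGFP. State 1, led by the neutrophil-attracting chemokine genes Cxcl3 and Cxcl1, held 0.140, 0.224, 0.119 and 0.157 EGFP UMIs per 10000 in Con libraries 1 and 2 and mA1 libraries 1 and 2. State 2, led by the immunoglobulin genes Igkc, Jchain and Igha of plasma cells, with the alveolar type 1 cell gene Hopx among its 10 leading genes, held 0.112, 0.126, 0.102 and 0.155. These were the states with at least 30 cells in every library, and their levels spread less between libraries than those of the whole class. State 3, led by Apoc2 and with Xist among its 10 leading genes, was mostly from Con library 2 (79 of 103 cells). There EGFP was at 0.281 and 73.4% of cells had a UMI, whereas its 18 cells in Con library 1 held 0.0445. Its 5 cells in mA1 library 2 held 0.603, from 8 UMIs in 1 cell. State 4, led by the stress-response genes Chac1, Ddit3 and Trib3, and state 6, led by Acta2, were mostly from Con library 1 (106 of 131 and 120 of 131 cells) and held 0.0151 and 0.0138 there, with 4 and 5 UMIs. The makeup by state moved with the library: in Con library 1 these low states made up 20.9% and 23.6% of cells without EGFP and 5.56% and 6.94% of cells with it.

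EGFP counts per cell were low but reached several molecules in epithelial cells. In Con library 2, 56 of 176 tumour-like epithelial cells had 2 or more EGFP UMIs and the highest had 8, and in mA1 library 2 it was 24 of 142, also with a highest count of 8. Con library 1 had 11 of 560 such cells and mA1 library 1 had 10 of 159, each with a highest count of 6. In alveolar macrophage-like cells 45 of 5116 had 2 or more, and the highest count was 4. Along depth, the share of Con library 2 epithelial cells with EGFP went from 25% in the shallowest of 5 depth groups (median 20363 UMIs) to 74.3% in the deepest (median 104341 UMIs), while EGFP per 10000 UMIs was 0.206 and 0.188. In alveolar macrophage-like cells EGFP per 10000 UMIs was higher in the shallowest of 5 depth groups than in the deepest in all 4 libraries, at 0.0818 and 0.0304, 0.154 and 0.0431, 0.0794 and 0.0509, and 0.0918 and 0.0637.

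Hashtags marked 2 sets of cells in each library, and EGFP macrophages were found in both. Alveolar macrophage-like cells with hashtag 1 held 0.0566, 0.0691, 0.0564 and 0.0776 EGFP UMIs per 10000 in Con libraries 1 and 2 and mA1 libraries 1 and 2, and those with hashtag 2 held 0.0466, 0.0423, 0.0583 and 0.0797. Most tumour-like epithelial cells (790 of 1037) carried neither hashtag, and EGFP was found in them at 0.0544, 0.201, 0.0863 and 0.175 per 10000.

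Between the groups EGFP did not pass the test in either class. In tumour-like epithelial cells mA1 over Con was -0.18 ± 0.80 on the log2 scale (adjusted p = 0.980, edgeR), where 0.0326% of 12256 genes were called (4 by edgeR, with 890 at an unadjusted p under 0.05, and 69 by DESeq2). Con library 2 had the highest level and Con library 1 the lowest, so the groups overlapped. The sign turned on single libraries: without Con library 2 the value was 1.05, and without mA1 library 1 it was 0.22. Con library 2 was also the library whose epithelial cells held Xist at 959 CPM and no Ddx3y UMI, so sex and replicate are mixed in Con. The libraries also drew on different states, within Con too. State 3 held 79 of 176 cells in Con library 2 and 18 of 560 in Con library 1. States 4 and 6 held 106 and 120 of 560 in Con library 1 and 7 and 4 of 176 in Con library 2. States 1 and 2 held 83 and 90 of 560 in Con library 1 and 31 and 30 of 176 in Con library 2. In mA1 these 2 states held 56 and 46 of 159 in library 1 and 74 and 33 of 142 in library 2. The part of this makeup in the difference was not tested. In alveolar macrophage-like cells mA1 over Con was 0.38 ± 0.22 (adjusted p = 0.997, edgeR). Both mA1 libraries lay above both Con libraries, 0.0577 against 0.0571 at the closest, but 0% of 12208 genes were called in that comparison by edgeR (312 at an unadjusted p under 0.05, and 10 by DESeq2), and without mA1 library 2 the difference was 0.13 and without mA1 library 1 it was 0.60.

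The genes whose levels were most like EGFP across classes were mainly genes high in epithelial cells and measurable in alveolar macrophages. Likeness was Pearson's r of log2(CPM + 1) over 56 sums (14 classes by 4 libraries) among 13044 genes. The points share libraries, and classes differ in depth, so r is a description. The closest were Mlph (r = 0.87), which encodes a vesicle-transport adaptor, and the keratin gene Krt19 (r = 0.87), followed by Kif21a (0.86), Fam171a1 (0.86), Adamtsl5 (0.86), Tc2n (0.86), Pdk4 (0.86), Cmbl (0.85), Bok (0.84) and Sema3e (0.84). Mlph averaged 93.8 CPM in tumour-like epithelial cells, 13.5 in alveolar macrophage-like cells and at most 11.3 in any other class. Pdk4, the pyruvate dehydrogenase kinase gene, was closer between the EGFP classes, at 13.2 and 12.2 CPM, with at most 5.97 elsewhere.

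Tumour-like epithelial cells with EGFP were next compared with cells of the same library that had none. Equal numbers were drawn within 5 depth groups of equal size (72, 61, 30 and 50 cells of each kind in Con libraries 1 and 2 and mA1 libraries 1 and 2) and summed by library. In this draw 7 genes were higher and 1 was lower in cells with EGFP at an adjusted p under 0.05 (edgeR, library as block), out of 10158 tested, which is 0.0788% of genes (0.0689% higher and 0.00984% lower), and 8.06% had an unadjusted p under 0.05. The higher genes included secreted and matrix proteins: Igfbp4, an insulin-like growth factor binding protein, at 1.01 ± 0.13 on the log2 scale (adjusted p = 0.00895), the fibulin gene Fbln2 at 1.58 ± 0.23, the stromelysin gene Mmp3 at 1.58 ± 0.23 and the dermokine gene Dmkn at 0.96 ± 0.16. Itgb6, the epithelial integrin subunit beta 6, was higher by 0.86 ± 0.13 and the ankyrin repeat gene Ankrd1 by 1.63 ± 0.21. Malat1 was higher by 0.48 ± 0.08 (adjusted p = 0.0402). Each of these 7 was higher in the cells with EGFP in all 4 libraries. Of all genes tested, 16.0% had the same sign in 4 libraries. Mmp3 was low and differed little in Con library 2, at 4.57 CPM with and 3.77 without EGFP. The 1 lower gene, the interferon-induced chemokine Cxcl10 (-2.95 ± 0.34, adjusted p = 0.00895), was not lower in every library and is named only because it was the single call in its direction, after its value was seen.

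Those calls depended on the draw. Another draw of cells gave 1 call and shared 0 of the 8, and all cells without depth matching gave 2 and shared 0. Matching on state within only 2 depth groups gave 5 and shared 0, and leaving out shared barcodes gave 1, which was among the 8. DESeq2 on the same sums called 11, of which 7 were shared. Leaving out mA1 library 1 gave 2 calls (1 shared), Con library 1 gave 16 (3 shared) and mA1 library 2 gave 13 (4 shared). The sign of every one of the 8 that was tested stayed the same in each of these 8 settings. For the most part they draw on the same cells with EGFP, so the kept signs are no separate support. Igfbp4 CPM showed the size of the difference by library: 112 with and 53.6 without EGFP in Con library 1, 132 and 81.1 in Con library 2, 390 and 191 in mA1 library 1, and 291 and 106 in mA1 library 2. Over the alternatives its log2 difference ran from 0.08 to 1.14. Itgb6 ran from 0.34 to 0.91, Ankrd1 from 0.41 to 2.36 and Mmp3 from 0.28 to 3.54.

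Malat1, the nuclear long noncoding RNA that the mA1 guides target, was higher with EGFP in both classes. In depth-matched tumour-like epithelial cells it made up 4.09% of UMIs with EGFP and 3.04% without in Con library 1, 2.76% and 1.78% in Con library 2, 2.84% and 2.29% in mA1 library 1, and 5.29% and 3.12% in mA1 library 2. The difference had the same sign in both groups, Con included. The epithelial difference passed in 2 of 13 alternatives, with a range of 0.25 to 0.76. Matched on state within only 2 depth groups, it held in 3 libraries and not in mA1 library 1 (2.87% and 2.90%). Depth was not evenly matched in that draw, where cells with EGFP had the higher median in every library. Medians were 37727 UMIs with and 29616 without EGFP in Con library 1, and 39149 and 31926 in mA1 library 1. In depth-matched alveolar macrophage-like cells Malat1 made up 1.23% with and 1.12% without EGFP in Con library 1, 1.19% and 0.969% in Con library 2, 1.11% and 0.933% in mA1 library 1, and 1.62% and 1.31% in mA1 library 2, a difference of 0.22 ± 0.03 on the log2 scale (adjusted p = 0.00149, edgeR, library as block). Without depth matching it was lower with EGFP in macrophages of Con library 2 (1.19% and 1.28%). Mitochondrial transcripts, which mark stressed or leaking cells, moved little beside it: in the matched macrophages they were 5.54% and 5.67%, 6.21% and 5.93%, 5.53% and 5.55%, and 6.03% and 5.77% of UMIs with and without EGFP.

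**Figure D4:**
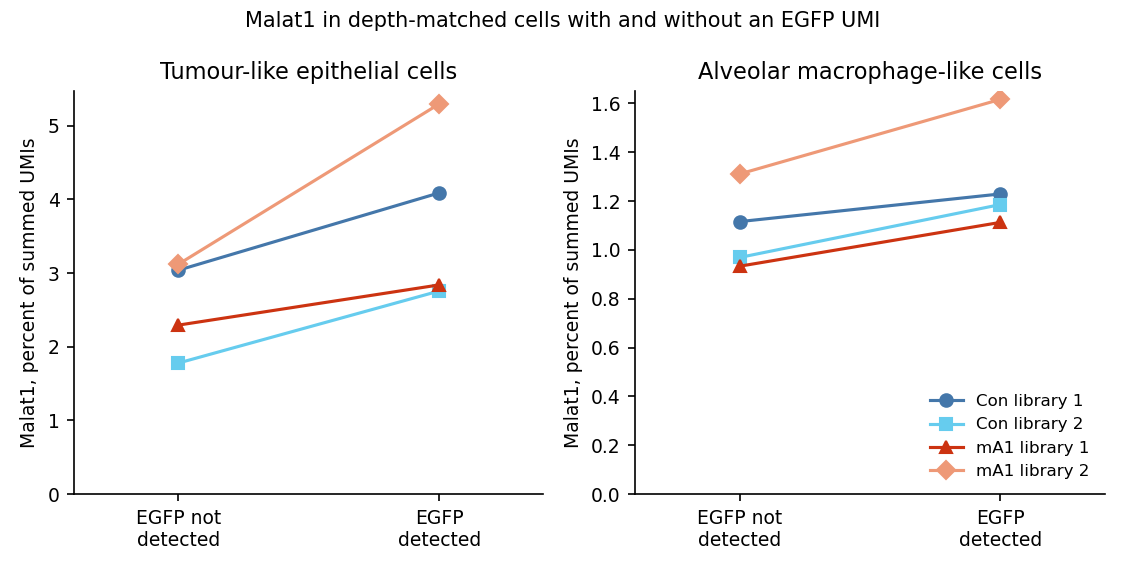
Malat1 as a percent of summed UMIs (vertical axis, from 0) in cells without and with an EGFP UMI, drawn in equal numbers within 5 depth groups, 1 line per library. In both classes all 4 lines rise, from 3.12% to 5.29% at the steepest in epithelial cells of mA1 library 2.

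Applied to alveolar macrophage-like cells, this comparison called 2 genes higher and 23 lower with EGFP out of 9021 tested (0.277% of genes, 0.0222% higher and 0.255% lower, with 6.36% at an unadjusted p under 0.05). The largest decreases were those of Inhba, which encodes an activin subunit and also leads cluster 14, at -1.88 ± 0.21 on the log2 scale (adjusted p = 3.50e-05, edgeR) and the chemokine gene Cxcl3 at -1.70 ± 0.16 (adjusted p = 4.06e-07). Inhba was at 11.5 CPM with and 22.9 without EGFP in Con library 1, 11.4 and 52.6 in Con library 2, 18.1 and 56.0 in mA1 library 1, and 3.82 and 29.5 in mA1 library 2. The growth factor gene Igf1 was at -0.72 ± 0.14. Cluster 14 itself made up 13.7% of cells with and 14.3% of cells without EGFP in Con library 1, 10.3% and 8.85% in Con library 2, 16.5% and 11.7% in mA1 library 1, and 0.813% and 2.22% in mA1 library 2. The 8 C1q macrophage markers summed to 292 to 379 CPM in the whole class against 27534 CPM or more in C1q macrophage-like cells, and their part in these differences was not tested.

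Further lower genes were smaller in size. AA467197 was at -0.66 ± 0.08, the lipid droplet gene Hilpda at -0.53 ± 0.10, the granule proteoglycan gene Srgn at -0.53 ± 0.09, the transglutaminase gene Tgm2 at -0.52 ± 0.10, the chemokine gene Ccl9 at -0.48 ± 0.07 and Basp1 at -0.44 ± 0.09. The MHC class I genes H2-K1 (-0.26 ± 0.05) and H2-D1 (-0.21 ± 0.05), the lysosomal protease genes Ctsb (-0.23 ± 0.05) and Ctsl (-0.33 ± 0.07) and the lysozyme gene Lyz2 (-0.19 ± 0.03) were also lower, and so was the p53 target Phlda3 (-0.87 ± 0.19, adjusted p = 0.0499), the last not in every library. Beside Malat1, Gm26917, a long noncoding RNA, was higher by 0.33 ± 0.07 (adjusted p = 0.0368). Over all cells, not matched on depth, those with EGFP came more from cluster 3 in each library (41.1% against 30.6% of cells without it in Con library 1) and less from cluster 1 (20% against 35.6%). Cluster 1 was shallower, at a median of 9901 UMIs against 15068, and thinned to 2000 UMIs the shares of cells with EGFP were 1.17% in cluster 1 and 1.51% in cluster 3. Drawn within cluster and depth the test called 65 genes, 17 of them among these 25, while DESeq2 called 4 (3 shared) and another draw 37 (15 shared). Leaving out cells with at least 2 UMIs of the 8 epithelial transcripts, mostly Krt19 in this class, gave 26 calls (5 shared). Requiring 2 EGFP UMIs gave 1 (0 shared). Without mA1 library 1 it called 54 (21 shared), without Con library 1 it called 10 (8 shared) and without Con library 2 it called 11 (7 shared). Each of the 25 that was tested kept its sign in these settings. They draw on the same cells with EGFP or on part of them, so the kept signs are no separate support. Inhba passed in 10 of 11 alternatives that gave it an adjusted p, Cxcl3 in 9 of 11 and Malat1 in 6 of 13. DESeq2 gave neither Inhba nor Cxcl3 an adjusted p.

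**Figure D5:**
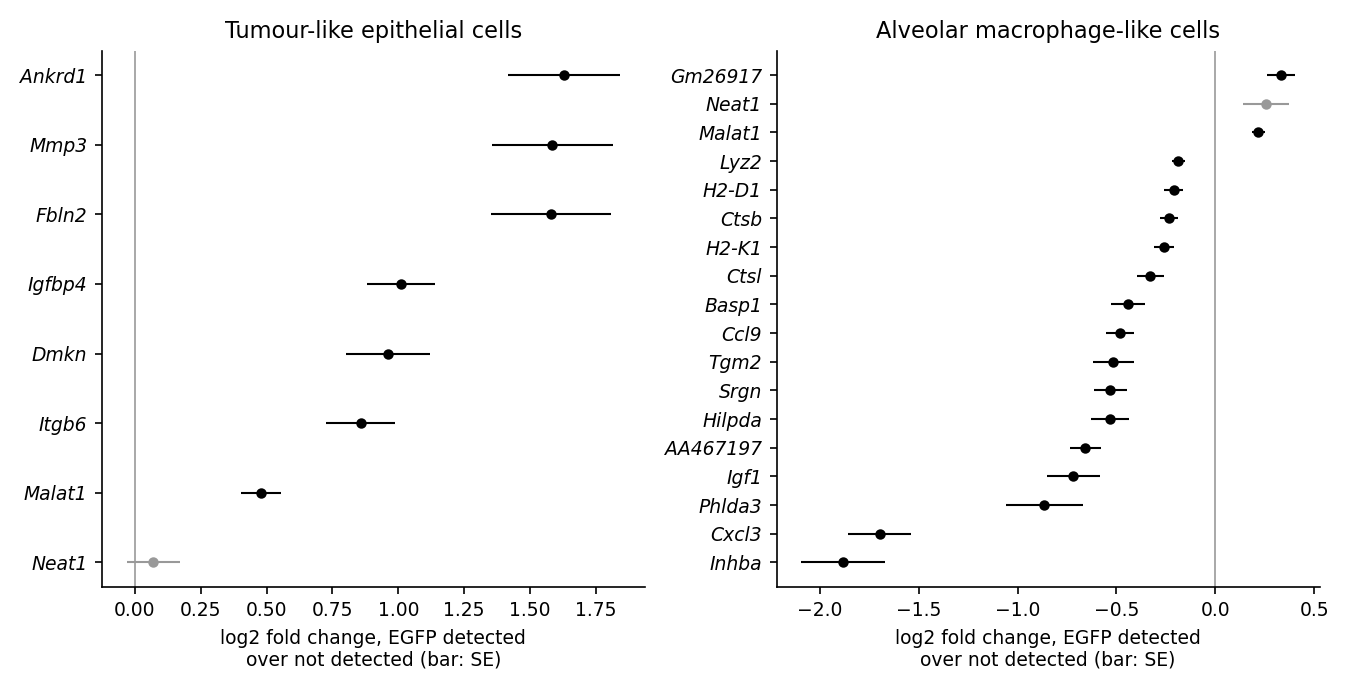
Log2 fold change (horizontal axis, with its SE) of the genes named for cells with over cells without an EGFP UMI, in tumour-like epithelial cells (left) and alveolar macrophage-like cells (right), with genes past the threshold in black and Neat1, which did not pass, in grey. Ankrd1, Mmp3 and Fbln2 lie near 1.6 on the left, and Inhba (-1.88) and Cxcl3 (-1.70) lie farthest below 0 on the right.

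Gene lists were described by counts beside the median of all genes, which was 0.00 in both comparisons. Among nuclear long RNAs, 5 of 5 tested were positive in epithelial cells (1 called, median 0.13) and 4 of 4 in macrophages (2 called, median 0.24), while Neat1 alone was at 0.07 ± 0.10 and 0.25 ± 0.12 and did not pass in either. Ribosomal protein genes, whose messages are cytoplasmic, were negative in 16 of 16 in epithelial cells (median -0.21, 0 called) and in 15 of 16 in macrophages (median -0.03, 0 called). Tumour epithelial markers had 2 positive and 8 negative values and 0 calls in epithelial cells, with a median of -0.03, and AT2 identity genes 4 and 12, with a median of -0.11 and 0 calls. Cell cycle genes were negative in 13 of 16 in epithelial cells (median -0.43, 0 called) and positive in 12 of 18 in macrophages (median 0.06, 0 called). Of 12 MHC class I genes, 10 were negative in macrophages and 2 were called lower, with a median of -0.17, and of 12 genes for efferocytosis and lysosomes 10 were negative and 2 called lower, with a median of -0.10. In macrophages 3 of 10 tumour epithelial markers passed the count filter, with a median of 0.08 and 0 calls. Of 9 myeloid genes tested in epithelial cells, 7 were negative with EGFP, with a median of -0.41 and 0 called.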

How the data were processed

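UMI counts per gene and barcode were deposited by the authors, 1 matrix for each library, and the submitters' processing notes name Cell Ranger 6.0.1 and mm10. Each matrix also held counts of 19 antibody features, of which the 2 hashtags were used. EGFP, its list of companion genes and all gene lists were chosen with earlier results of these data known. Barcodes with at least 500 UMIs, 250 genes and at most 15% mitochondrial UMIs were kept. Hashtags were called by a mixture of 2 Gaussians on log10 counts above 10. Barcodes with both hashtags (808) and those called by scrublet (scanpy 1.11.5) were left out as doublets. Scrublet called 0 barcodes in Con library 2, where it did not work. Counts were scaled to 10000 per cell, and 2000 variable genes, without EGFP, Malat1, Xist, Y-linked, mitochondrial and ribosomal genes, gave 30 components, 15 neighbours and Leiden clusters at resolution 1 (leidenalg 0.10.2; 0.5 for epithelial states). Epithelial cells with surfactant genes (AT2-like) and a state led by macrophage genes (35 cells, left out after its genes were seen) were set apart, and clusters 15, 18, 24 and 25 stayed unnamed. These rebuilt names may not match those of the submitters.

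Sums of UMIs by class and library were tested in R 4.3.3 with edgeR 4.0.16 (two-sided robust quasi-likelihood, filterByExpr and TMM), with Benjamini-Hochberg adjustment over all genes. DESeq2 1.42.0 was an alternative. For cells with against without EGFP, equal numbers were drawn per library within 5 groups of total UMIs. The state-matched draw used 2 such groups crossed with state. EGFP was left out of the matrix. Thinned shares are hypergeometric expectations. The genes named were the 10 largest calls in each direction with the same sign in 4 libraries, every called member of the lists, Malat1 and Neat1, plus the 10 genes of highest r with EGFP; 1 gene under this rule is not reported here. On simulated counts for the epithelial comparison (10180 genes) 77 of 100 genes changed 2-fold and 100 of 100 changed 4-fold were called, with 8 false calls. For the macrophage comparison (8993 genes) it was 63 and 100, with 6 false calls. The changed genes were picked among those with higher counts. The simulated sums had a fixed spread and no draw of cells. These rates therefore need not hold for the calls above, which changed with the draw. No EGFP sequence was used here.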

Additional observations from a re-analysis of the deposited data

Results flagged for a closer look

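EGFP UMIs also lay in barcodes outside the comparisons, all above the level in T, NK and B cells. Barcodes over the mitochondrial limit held 160 EGFP UMIs in 142 of 4686 barcodes, or 0.0469, 0.0984, 0.1002 and 0.211 per 10000 UMIs in Con libraries 1 and 2 and mA1 libraries 1 and 2. Barcodes with both hashtags held 57 EGFP UMIs in 41 of 808, at 0.0481 per 10000 UMIs. Barcodes called by scrublet held 10 EGFP UMIs in 10 of 146, at 0.0570 per 10000. Unnamed cluster 24, whose 370 cells have a median of 733 UMIs and are led by Sftpc, held 5 EGFP UMIs. The epithelial state led by macrophage genes held 11 EGFP UMIs in 7 of 35 cells, at 0.0814 per 10000 UMIs.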

How the results depend on the processing

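Over the alternatives the ratio of EGFP to epithelial transcripts kept its sign, from 5.30 to 6.34 without 1 library and 8.94 with Krt8 and Krt18 alone. The share of alveolar macrophage-like cells with EGFP was 0.687% at 1000 UMIs, 2.53% at 4000, 0.0200% with 2 EGFP UMIs required and 1.54% with mitochondrial UMIs up to 25%. In epithelial cells it was 4.87% at 4000 UMIs and 0.0820% with 2 EGFP UMIs. EGFP in epithelial over alveolar macrophage-like cells was 0.81 without a count filter (adjusted p = 0.0551, edgeR) and 0.48 to 1.07 without 1 library. Alveolar macrophage-like over macrophage cluster 2 was 0.80 without the filter (adjusted p = 5.01e-05, edgeR) and 0.46 to 1.17 without 1 library. Over mature DC-like cells it was 2.38 with DESeq2 (call lost) and 1.92 to 3.08 without 1 library, where 3 of 4 lost the call, and over neutrophil-like cells 1.78 to 3.57 without 1 library. For mA1 over Con in epithelial cells the value was -0.86 to 1.05 without 1 library, and reversed without Con library 2 (1.05) and mA1 library 1 (0.22).

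Same-numbered libraries of the 2 groups shared only a number: their deviations correlated at -0.09 in epithelial and 0.17 in alveolar macrophage-like cells. With the replicate block mA1 over Con was -0.02 and 0.35. Without the library as replicate block, cluster 3 over macrophage cluster 2 was 1.07 (adjusted p = 0.154, edgeR), and cells with against without EGFP gave 0 calls in both classes by edgeR (336 and 260 genes at an unadjusted p under 0.05; DESeq2 with the block called 11 and 4).

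Genes called with EGFP in epithelial cells numbered 96 without the count filter, 2 without depth matching, 1 in another draw, 5 with state matching, 2 without cells carrying immune UMIs, 1 without shared barcodes, 0 at 2 EGFP UMIs (541 at an unadjusted p under 0.05) and 2 to 16 without 1 library. In macrophages they numbered 85 without the filter, 39 without depth matching, 65 with cluster matching, 4 with DESeq2, 1 at 2 EGFP UMIs, 15 without shared barcodes and 10 to 54 without 1 library. Neat1 in epithelial cells reversed to -0.085 without depth matching, -0.079 in another draw, -0.085 at 2 EGFP UMIs and -0.056 without cells carrying immune UMIs. The causes were not tested.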

Other observations

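Unnamed cluster 25, led by Ttr, Enpp2 and Folr1, had 498 cells with a median of 578 UMIs, 430 of them with a barcode that another library also held, and it held 0 EGFP UMIs. In macrophage cluster 2 the cells of hashtag 1 and hashtag 2 held 1 and 9 EGFP UMIs in Con library 1, 6 and 5 in Con library 2, 20 and 31 in mA1 library 1, and 21 and 8 in mA1 library 2. Barcodes under the depth limits (1560) held 2 EGFP UMIs.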
